A study of Arabidopsis thaliana with 24 samples.

Results

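The comparison described here is the step across subjective dusk in the shoot apex of Arabidopsis thaliana, accession Col-0. Its members are the 2 shoot apex libraries collected 110 h after transfer to constant light (ZT110) and the 2 collected at 106 h (ZT106), 4 of the 24 libraries of a time course of shoot apex and true leaves. The plants of all groups were wild type and grew on soil at 22 °C for 14 days in 12 h light (about 100 μmol m-2 s-1) and 12 h dark. They were then kept in constant light of about 60 μmol m-2 s-1. No treatment is described, although the library names contain the word mock. Counted in days of 24 h, ZT110 lies at hour 14, in the early subjective night, and ZT106 at hour 10, in the late subjective day. "Subjective" means that the lamps stayed on and that only the plant's own clock marked the hour. Each library held polyA RNA from the dissected apices of 6 to 10 seedlings. The 2 libraries of a time come from independent experiments, and the labels do not say which replicate number belongs to which experiment. The spread between replicates came from all 12 shoot apex libraries, which include ZT90, ZT94, ZT98 and ZT102 (2 each).

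The plant clock is a loop of transcription factors. MYB repressors of the morning, CCA1 and LHY, hold down evening genes through a promoter sequence called the evening element, and pseudo-response regulators made in sequence through the day, such as PRR7, PRR5 and TOC1, in turn repress CCA1 and LHY. The loop passes time of day on to light-harvesting genes, growth regulators such as the basic helix-loop-helix factor PIF4, and metabolism.

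Levels are the authors' FPKM, reads scaled to gene length and library size. Changes are in log2(FPKM + 1), ZT110 minus ZT106, with the standard error (SE) from limma over the 12 shoot apex libraries, so that a change understates the fold of a low gene. A gene is called where its Benjamini-Hochberg adjusted limma p over all 19275 genes tested was under 0.05. Of these genes 26 were called, 13 rising and 13 falling, which is 0.135% of those tested and 0.0674% in each direction. The rise was at least 2-fold for 8 of them and the fall for 11. In each of the 26, both ZT110 libraries lay on the same side of both ZT106 libraries, as they did upward in 21.3% and downward in 11.6% of all genes tested. These libraries also made the calls, so the separation of a called gene, here and below, is a description and no further support. Replicate numbers paired the libraries across times, and with the replicate number as a block 165 genes were called (0.856%), 102 rising (0.529%) and 63 falling (0.327%), all 26 among them. The calls rested on all 4 libraries. In each fit that left out 1 of them, most of the 26 lost their call. In the fits without a ZT106 library some calls were not among the 26. All 26 kept their sign in each of these fits, with the values closest to 0 being -0.61 for BBX24 among the falling genes and 0.60 for UGT74D1 among the rising ones.

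Estimated from the step between neighbouring FPKM values, depth was 10.2 to 13.5 M reads in the 4 compared libraries and 7.8 to 14.8 M reads over the 12. The apex label held against its markers. The meristem homeobox genes STM and KNAT1 ranged from 20.09 to 34.04 FPKM over the 12 apex libraries and reached at most 0.199 FPKM in leaves, the stem cell genes WUS and CLV3 were low at 0 to 0.972 FPKM, and 5 floral organ genes reached at most 0.244 FPKM. Of 6 root markers, PLT1, PLT2, RHD6, COBL9 and EXPA7 reached at most 0.037 FPKM over the 12 libraries. The sixth, WOX5, was at 2.84 and 2.78 FPKM at ZT110 against 1.85 and 1.82 FPKM at ZT106, without a call. Mature-leaf markers (CA1, CA2, LOX2, SWEET11, SWEET12, CAT2) summed to 47.6 and 40.1 FPKM at ZT110 against 23.6 and 30.0 FPKM at ZT106, and to 1466 to 3641 FPKM in leaf libraries. All 4 of these markers that were tested were higher at ZT110, by 0.47 to 0.85, as were 59.9% of all genes tested. The median change of the 4 was 0.654 in the apex and 0.646 in leaves over the same step. By limma none was called and 2 had an unadjusted p under 0.05, as had 4.56% of all genes in the upward direction. Their part in the results was not tested. In such bulk samples, fewer cells of a type and less RNA per cell cannot be told apart.

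**Figure D1:**
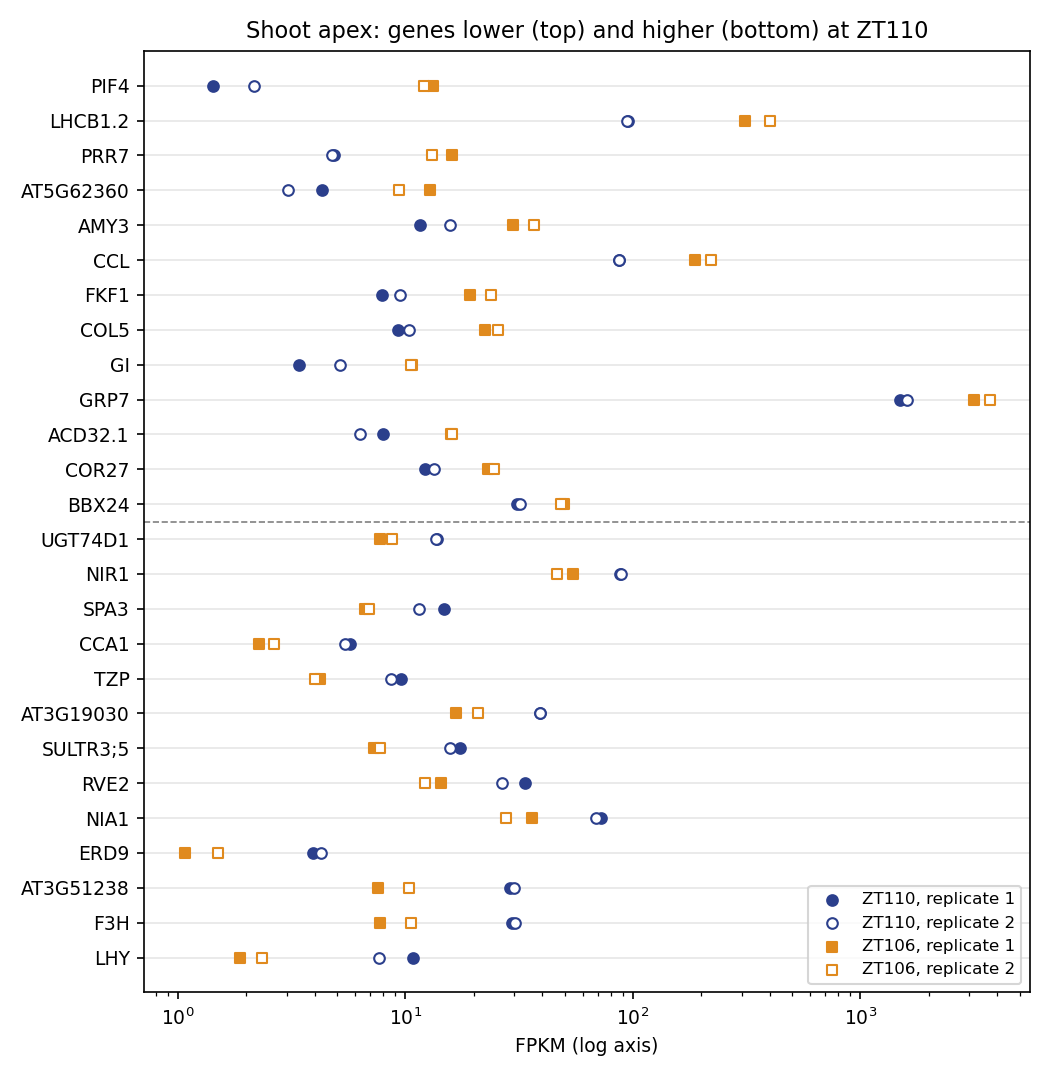
FPKM of the 26 called genes in the 4 compared shoot apex libraries (log axis). Blue circles are ZT110 and orange squares ZT106, filled for replicate 1 and open for replicate 2, and genes run downward by their change. In the 13 genes above the dashed line both ZT110 libraries lie left of both ZT106 libraries, and in the 13 below it they lie right of them.

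The deepest fall among the 26 called genes was that of PIF4, the growth-promoting factor that acts on auxin and cell elongation genes. PIF4 (AT2G43010, chr2:17886101-17889087 in TAIR10.1) stood at 1.42 and 2.15 FPKM in the ZT110 libraries, against 13.3 and 12.0 FPKM in the ZT106 libraries. The groups lay far apart, with a change of -2.30 ± 0.14 (limma adjusted p = 0.000557). PIF4 was the only gene called in all 4 fits that left out a compared library, where its change ranged from -2.49 to -2.12. AT2G33830, given here after its values were seen, had 44.8 and 63.1 FPKM at ZT110 against 290.0 and 264.7 FPKM at ZT106. Its change of -2.36 ± 0.47 was called with the replicate block only (limma adjusted p = 0.0168, against 0.11 without it). PIF5, a close relative, stood at 5.18 and 5.01 FPKM at ZT110 against 11.4 and 9.10 FPKM at ZT106. Its change was -0.88 ± 0.14 and was called with the replicate block (limma adjusted p = 0.00773) and not without it (0.0632). None of the 14 tested genes of PIF and shade-related growth rose. Among them 1 fell, or 2 with the block, against 0.0674% and 0.327% of all genes. The list's median change was -0.12, against 0.04 over all genes tested. PIF3, PIF7 and the shade marker PIL1 had changes of 0.12, -0.003 and 0.05, none of them called.

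Of the morning clock genes, the MYB repressors were higher after dusk and PRR7 was lower. LHY (AT1G01060, chr1:33365-37871) had 10.8 and 7.66 FPKM at ZT110, against 1.88 and 2.34 FPKM at ZT106. CCA1 (AT2G46830, chr2:19245591-19248915) had 5.70 and 5.43 FPKM at ZT110, against 2.28 and 2.64 FPKM at ZT106. Both ZT110 libraries were above both ZT106 libraries for each of the pair, with changes of 1.70 ± 0.17 (limma adjusted p = 0.0152) and 0.93 ± 0.11 (0.0181). These are low levels for the 2 genes, whose means at ZT94 were 101.8 and 76.8 FPKM. RVE2, another MYB factor of this family, rose by 1.12 ± 0.17 (limma adjusted p = 0.0489) and had 33.7 and 26.7 FPKM at ZT110 against 14.3 and 12.2 FPKM at ZT106. RVE8, an activator of evening genes, had 11.8 and 7.01 FPKM at ZT110 against 2.69 and 3.25 FPKM at ZT106. Its change of 1.35 ± 0.23 was called with the replicate block (limma adjusted p = 0.0123) and not without it (0.0725).

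PRR7 (AT5G02810, chr5:637681-642030) stood at 4.86 and 4.73 FPKM at ZT110, against 16.1 and 13.0 FPKM at ZT106, a change of -1.42 ± 0.12 (limma adjusted p = 0.00563). Its libraries did not overlap, and its mean had been 35.7 FPKM at ZT102. The coactivator gene LNK1 and the Dof repressor gene CDF3 changed by -0.90 ± 0.16 and -0.62 ± 0.14, both called with the block (limma adjusted p = 0.0337 and 0.0438) and not without it (0.0755 and 0.16). LNK4 (-0.69), RVE7 (-0.44) and LNK2 (-0.23) were lower and LNK3 (0.04), CDF1 (0.06), CDF2 (0.08), RVE4 (0.38) and RVE1 (0.40) were higher at ZT110, with no call in either fit. Of 15 morning genes tested, 3 rose and 1 fell, or 4 and 3 with the block. Among all genes 0.0674% were called in each direction, or 0.529% rising and 0.327% falling with the block. The list's median of 0.06 lay near that of all genes. PRR9 was too low to test, at 0.094 and 0.039 FPKM at ZT110 against 0.125 and 0.322 FPKM at ZT106, and reached 1.06 FPKM at its highest of the 12 libraries. RVE6 and CDF5 carry another name in the annotation and were left out.

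The called evening clock genes were all lower at ZT110. FKF1, an F-box protein that senses blue light, had 7.92 and 9.46 FPKM at ZT110, against 19.2 and 23.8 FPKM at ZT106. GI, which binds FKF1 and its relative ZTL, had 3.40 and 5.17 FPKM at ZT110, against 10.7 and 10.6 FPKM at ZT106. COR27, a repressor in the clock that also responds to cold, had 12.2 and 13.3 FPKM at ZT110, against 23.1 and 24.4 FPKM at ZT106. In all 3 the ZT110 libraries lay below the ZT106 libraries, and the changes were -1.21 ± 0.13, -1.16 ± 0.15 and -0.85 ± 0.11 (limma adjusted p = 0.0165, 0.025 and 0.025). PRR5 had 6.83 and 8.37 FPKM at ZT110 against 13.8 and 15.4 FPKM at ZT106. Its change of -0.86 ± 0.15 was called with the replicate block (limma adjusted p = 0.0139) and not without it (0.0804).

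The evening complex and TOC1 were not among the calls. LUX, the DNA-binding subunit of that complex, had 29.28 and 26.01 FPKM at ZT110 against 46.7 and 37.0 FPKM at ZT106, and ELF4 had 42.7 and 39.9 FPKM against 64.2 and 58.0 FPKM. Their changes were -0.58 ± 0.16 and -0.55 ± 0.21, with limma adjusted p of 0.344 and 0.57. TOC1, which represses CCA1 and LHY, had 45.4 and 43.5 FPKM at ZT110 against 54.7 and 48.5 FPKM at ZT106, a change of -0.21 ± 0.11. JMJD5 (-0.33), PRR3 (-0.60), BOA (-0.18) and TCP21 (-0.14) were lower as well, without a call. ZTL (-0.02), ELF3 (0.04) and LKP2 (0.13) were also without a call, and ELF3 was at -0.008 when the libraries were rescaled. In all, 3 of 14 evening genes fell, or 4 with the block, against 0.0674% and 0.327% of all genes, and none rose. The list's median was -0.44. In 9 members both ZT110 libraries lay below both ZT106 libraries, a pattern seen in 11.6% of all genes tested. COR28 carries another name in the annotation and was left out of this list.

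Clock output and light signalling genes made up a further part of the falls. GRP7, an RNA-binding protein gene that feeds back on its own transcript, was the most abundant of the called genes, with 1495 and 1599 FPKM at ZT110 against 3144 and 3691 FPKM at ZT106. Its change was -1.14 ± 0.15 (limma adjusted p = 0.0309), with the groups well apart. Its near relative GRP8 changed by -1.06 ± 0.18, called only with the replicate block (limma adjusted p = 0.026, against 0.073 without it). BBX24, a B-box protein of light signalling, had 30.9 and 31.9 FPKM at ZT110 against 49.9 and 48.4 FPKM at ZT106, the smallest called fall at -0.63 ± 0.09 (limma adjusted p = 0.0477). COL5, a CONSTANS-like B-box gene outside the lists, had 9.29 and 10.3 FPKM at ZT110 against 22.4 and 25.4 FPKM at ZT106. It changed by -1.20 ± 0.17 (limma adjusted p = 0.0384). COL2, of the same family, moved the other way, by 0.51 ± 0.09, called with the block only (limma adjusted p = 0.0218, against 0.0868). Of the 9 clock output genes tested 1 fell, and with the block 1 rose and 2 fell. Among all genes tested 0.0674% fell, and with the block 0.529% rose and 0.327% fell.

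A pair of light signalling genes outside the list rose. SPA3, a partner of the ubiquitin ligase COP1, had 14.7 and 11.5 FPKM at ZT110 against 6.67 and 6.91 FPKM at ZT106, a change of 0.85 ± 0.12 (limma adjusted p = 0.0477). TZP, a zinc knuckle protein of light-dependent growth, had 9.53 and 8.60 FPKM at ZT110 against 4.21 and 3.99 FPKM at ZT106, a change of 0.98 ± 0.11 (0.0181 by the same test). No ZT110 library of either gene fell to the ZT106 levels. HYH, a bZIP factor related to HY5, had 13.7 and 7.42 FPKM at ZT110 against 3.69 and 3.08 FPKM at ZT106, and its change of 1.35 ± 0.30 was called with the replicate block (limma adjusted p = 0.014) and not without it (0.168). HY5 itself changed by 0.63 ± 0.15 and was not called in either fit. The photoreceptor genes PHYA, PHYB, CRY1 and CRY2 had changes between -0.33 and 0.19, without a call. Of the 15 light signalling genes tested 1 fell, and with the block 1 rose and 1 fell. Over all genes tested 0.0674% fell, and with the block 0.529% rose and 0.327% fell.

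**Figure D2:**
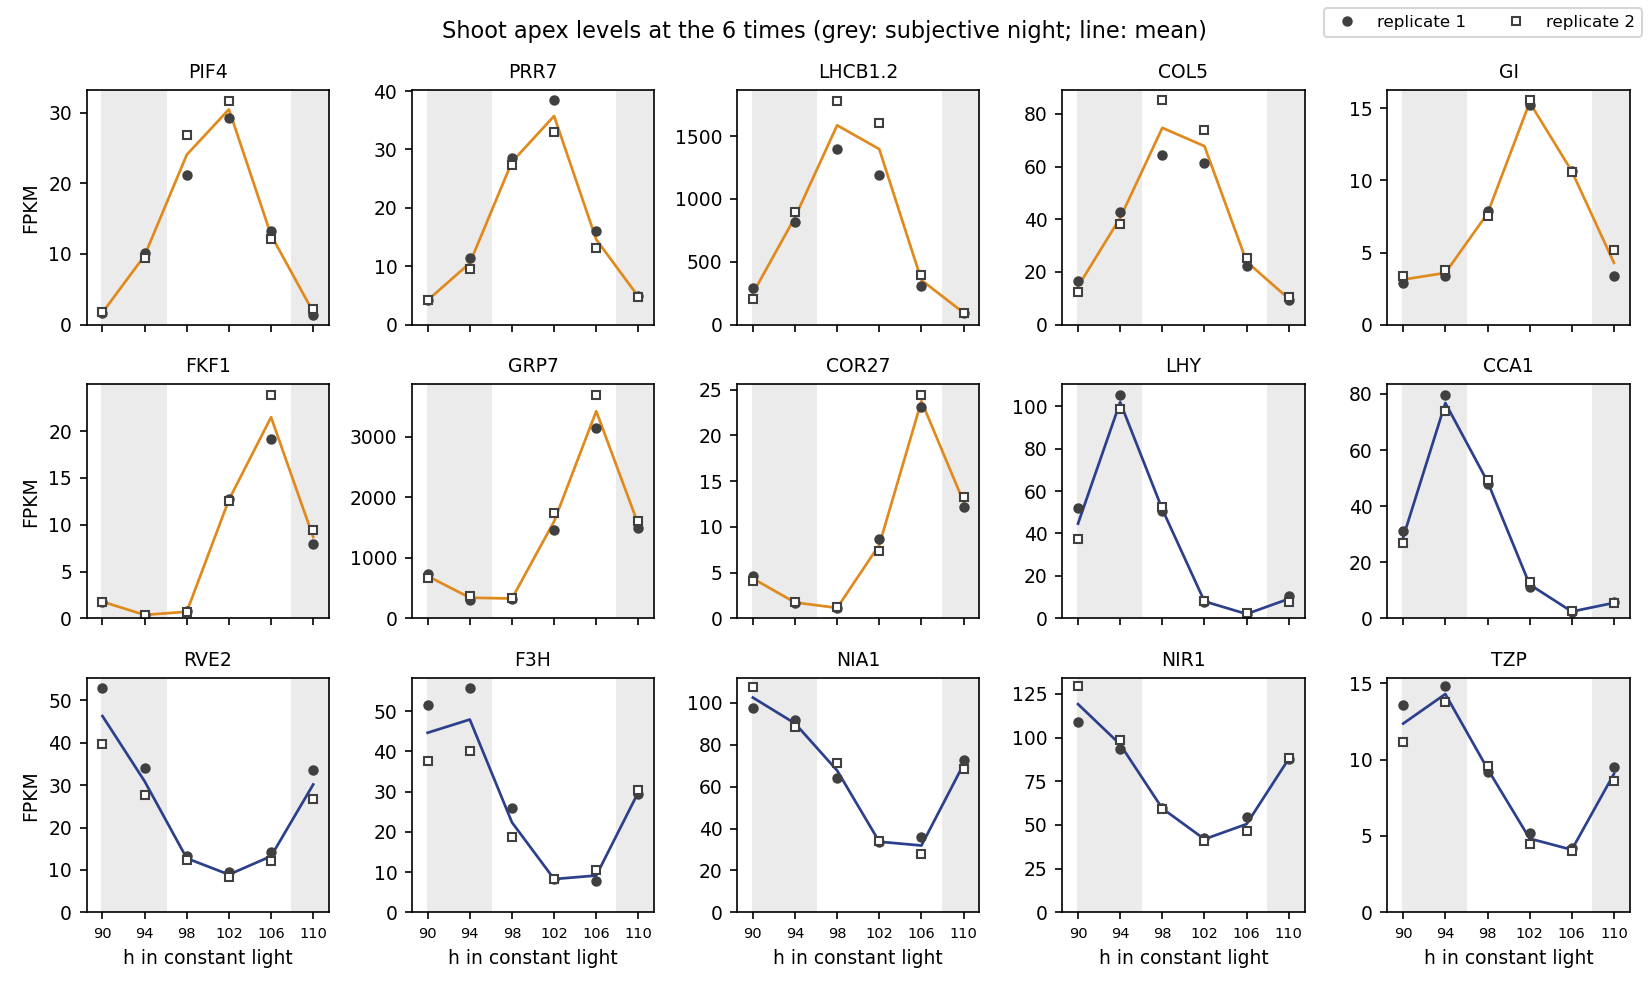
Shoot apex FPKM of 15 called genes at the 6 times (x axis: hours in constant light). Filled circles are replicate 1, open squares replicate 2 and the line is their mean, orange for genes lower and blue for genes higher at ZT110 than at ZT106, with subjective night in grey. PIF4, PRR7 and GI have their highest mean at ZT102, FKF1, GRP7 and COR27 at ZT106, and the blue genes at ZT90 or ZT94.

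The 13 falling genes differed in where they stood before dusk. For 6 of them (AT5G62360, CCL, FKF1, GRP7, ACD32.1, COR27) the mean at ZT106 was the highest of the 6 times, so that ZT110 was the first time after the top. GRP7, for example, averaged 328.8 FPKM at ZT98 and 1601 FPKM at ZT102 before its ZT106 values. For the other 7 the highest mean was earlier, at ZT102 in PIF4, PRR7, AMY3 and GI and at ZT98 in LHCB1.2, COL5 and BBX24. The means of PIF4, LHCB1.2 and COL5 at ZT102 were 30.4, 1397 and 67.8 FPKM, so ZT110 continued a decline already seen at ZT106. The 13 rising genes were highest at ZT94 (8 genes) or ZT90 (5 genes) and lowest at ZT106 (9) or ZT102 (4). The ZT106 and ZT110 libraries enter both these positions and the calls, so the positions are a description.

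A second pair of apex times also sets night against day. ZT90 is hour 18, in the subjective night, and ZT102 is hour 6, at subjective midday. Their libraries enter neither mean of the ZT110 change, but both comparisons share 1 estimate of each gene's spread, from all 12 libraries. All 13 rising genes were higher and all 13 falling genes lower at ZT90 than at ZT102, and all 26 were called in that direction in this second comparison, in which 3.06% of genes were called. The steps between neighbouring apex times called 0.208% (ZT94 minus ZT90), 0.0208% (ZT98 minus ZT94), 0.706% (ZT102 minus ZT98) and 0.239% (ZT106 minus ZT102). Over all genes tested, 59.0% of those with a positive ZT110 change and 70.6% of those with a negative one had the same sign in ZT90 minus ZT102. The highest limma adjusted p among the 26 was 0.0304. PIF4 again had the deepest fall of the 26, at -3.54, and LHY and F3H changed by 2.32 and 2.28. The median change of the 13 falling genes was -1.21 in ZT110 minus ZT106 and -1.99 in ZT90 minus ZT102. Of the genes called with the replicate block, 98 of 102 rising and 62 of 63 falling genes kept their sign in ZT90 minus ZT102.

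**Figure D3:**
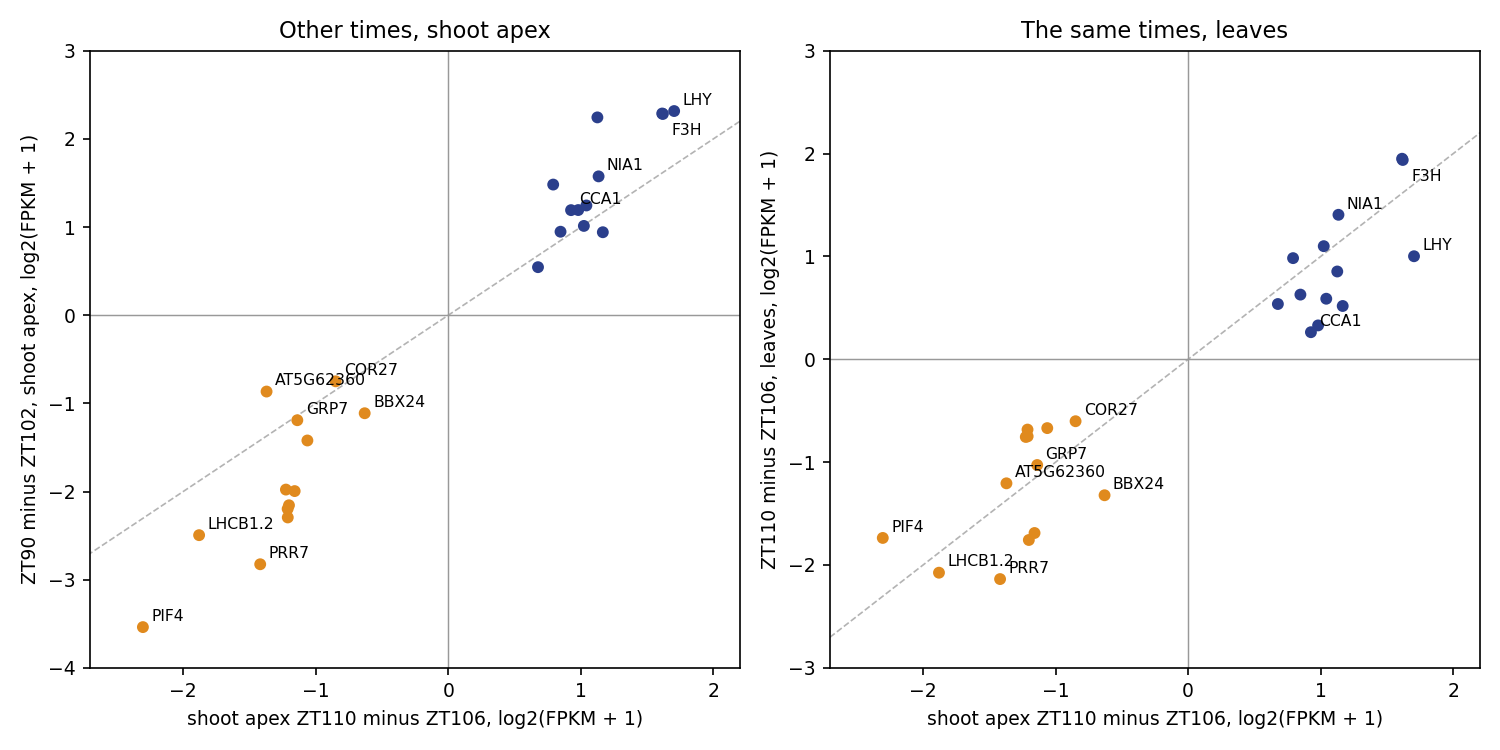
Change of the 26 called genes in ZT110 minus ZT106 in the shoot apex (x axis) against their change in ZT90 minus ZT102 in other shoot apex libraries (left) and in ZT110 minus ZT106 in leaves (right), all in log2(FPKM + 1). Orange points fell and blue points rose, and the dashed line marks equal change. All points lie in the lower left or upper right of both panels, where the 2 changes have the same sign.

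The promoters of the called genes were read as the 250 bases before the annotated gene start in the RefSeq genome TAIR10.1 and searched on both strands for 7 short motifs known from clock and light studies. The evening element (AAAATATCT) stood in 6 of the 13 falling genes (46.2%), in 1 of the 13 rising genes (TZP, 7.69%) and in 2.44% of the 18946 promoters of genes tested. It was present in 5 of the 6 falling genes that were highest at ZT106 and in 1 of the other 7, BBX24. That split by time was not planned, and the ZT106 libraries enter both it and the calls. No share over all genes was taken for it, and a link between time and motif was not tested. The G-box (CACGTG) stood in 5 rising genes (38.5%: CCA1, LHY, RVE2, F3H and ERD9), in 1 falling gene (PRR7) and in 7.19% of all. Neither motif contains the other, and no 2 matches of the 7 motifs overlapped in a called promoter. With the genes called under the replicate block, the evening element was in 17.5% of falling and 4% of rising promoters and the G-box in 12.7% and 13%. A match is a description of letters and says nothing of binding. The 4 promoters printed here are shown because they carry these matches in genes named above, with every searched motif in capitals, 5′ to 3′ on the gene's strand and ending at the base before the gene.
GRP7 promoter, chr2:9266558-9266807, minus strand: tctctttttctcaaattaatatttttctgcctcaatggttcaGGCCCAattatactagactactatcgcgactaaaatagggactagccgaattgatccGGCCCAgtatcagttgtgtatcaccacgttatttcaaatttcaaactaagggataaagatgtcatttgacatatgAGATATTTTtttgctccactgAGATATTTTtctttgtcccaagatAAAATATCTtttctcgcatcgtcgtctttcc
FKF1 promoter, chr1:25508389-25508638, plus strand: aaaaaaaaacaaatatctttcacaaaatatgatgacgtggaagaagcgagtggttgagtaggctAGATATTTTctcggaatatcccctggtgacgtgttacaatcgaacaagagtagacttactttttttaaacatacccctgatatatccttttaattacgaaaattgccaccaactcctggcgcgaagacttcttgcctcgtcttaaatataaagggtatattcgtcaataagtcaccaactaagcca
CCA1 promoter, chr2:19245341-19245590, plus strand: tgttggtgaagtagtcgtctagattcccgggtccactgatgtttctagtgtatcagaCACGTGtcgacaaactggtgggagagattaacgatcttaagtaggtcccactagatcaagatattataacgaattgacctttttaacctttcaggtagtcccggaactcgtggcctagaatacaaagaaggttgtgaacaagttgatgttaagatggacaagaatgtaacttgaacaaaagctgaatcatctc
LHY promoter, chr1:37872-38121, minus strand: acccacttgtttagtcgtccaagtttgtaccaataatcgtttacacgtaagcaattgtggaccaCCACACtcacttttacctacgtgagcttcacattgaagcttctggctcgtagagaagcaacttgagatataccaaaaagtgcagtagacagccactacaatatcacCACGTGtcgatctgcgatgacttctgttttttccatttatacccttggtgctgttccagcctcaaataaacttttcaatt

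In GRP7 the evening elements begin 76, 55 and 31 bases before the gene start, the first 2 on the opposite strand, and the other capitals mark the site II element (TGGGCC) on the opposite strand. In FKF1 there is 1 evening element at 186 bases, on the opposite strand. In CCA1 and LHY the G-box begins 193 and 80 bases before the start, and in LHY the capitals further from the gene are the morning element (CCACAC). That motif stood in 3 rising and no falling promoters and in 6.26% of all. The CCA1 binding site (AAAAATCT) stood in 3 rising and no falling promoters (6.76% of all) and the I-box core (GATAAG) in 4 rising and 1 falling (12.3%). The telo box (AAACCCTA) and the site II element each stood in 1 falling and no rising promoter, against 3.76% and 17.1% of all. F3H and AT3G51238 start on opposite strands, so their promoters are separate windows.

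**Figure D4:**
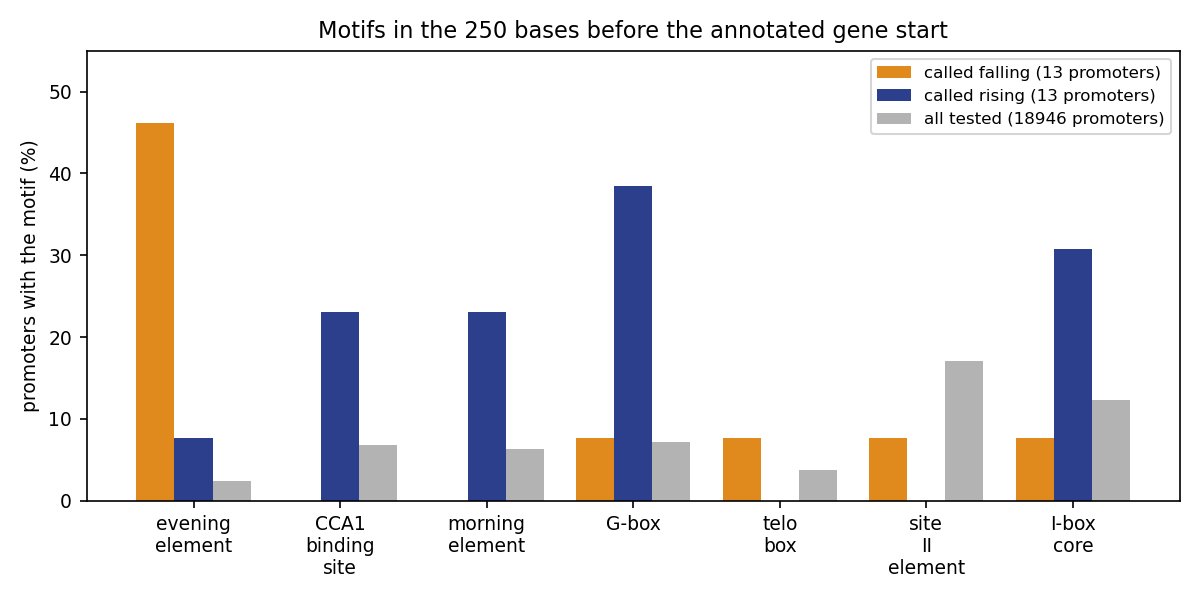
Share of promoters (250 bases before the annotated gene start) that hold each of 7 motifs on either strand, for the 13 falling genes (orange), the 13 rising genes (blue) and all 18946 promoters of genes tested (grey). The evening element is in 46.2% of falling promoters and the G-box in 38.5% of rising promoters, against 2.44% and 7.19% of all.

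Genes of the light-harvesting antenna, the chlorophyll proteins that feed light into the photosystems, were lower at ZT110 in all 17 members of the list, which does not hold LHCB4.3 (apex change 0.32, without a call). In all 17 both ZT110 libraries lay below both ZT106 libraries, a pattern seen in 11.6% of all genes. The median change was -0.88, with a range of -1.88 to -0.38. By the main test 1 member fell, and 9 did with the replicate block, against 0.0674% and 0.327% of all genes. LHCB1.2, a major antenna protein gene of photosystem II, had 95.5 and 94.0 FPKM at ZT110 against 309.9 and 398.6 FPKM at ZT106, a change of -1.88 ± 0.22 (limma adjusted p = 0.0181). LHCB2.2 had 28.6 and 39.2 FPKM at ZT110 against 74.9 and 108.7 FPKM at ZT106, and LHCA1 of photosystem I had 160.2 and 169.8 FPKM against 354.3 and 385.5 FPKM. Their changes of -1.40 ± 0.23 and -1.16 ± 0.18 were called with the block (limma adjusted p = 0.00502 and 0.0163) and not without it (0.0603 and 0.0548). The most abundant member, LHCB1.3, had 2149 and 2531 FPKM at ZT110 against 3341 and 4239 FPKM at ZT106, a change of -0.69 ± 0.21 without a call in either fit. The LHCB1 copies are nearly identical, so the division of 50-base reads among them is uncertain.

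The photosystem core and its subunits were lower by less. All 18 had a negative change, where 59.9% of all genes tested had a positive one. The changes ran from -0.48 (PSAL) to -0.09, with a median of -0.32. By limma none was called in either fit, and 10 had an unadjusted p under 0.05, as had 2.6% of all genes in the downward direction. PSAL, a subunit of photosystem I, had 285.5 and 323.5 FPKM at ZT110 against 393.4 and 456.5 FPKM at ZT106. The mature-leaf markers given above were higher at ZT110, in the apex and in leaves. Whether the share of leaf tissue differed between the times was not tested. Among 19 genes of chlorophyll synthesis and plastid control 1 was called, PORB, an enzyme of chlorophyll synthesis, and only with the block (-0.57 ± 0.16, limma adjusted p = 0.0453 against 0.377).

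AMY3, an alpha-amylase of the plastid, led the starch breakdown genes. It had 11.6 and 15.7 FPKM at ZT110 against 29.7 and 36.5 FPKM at ZT106, with a change of -1.23 ± 0.14 (limma adjusted p = 0.0181). The groups did not overlap. No other of the 17 starch breakdown genes was called in either fit, the phosphatase gene SEX4 having changed by -0.39 ± 0.08 and the debranching enzyme gene ISA3 by -0.45 ± 0.12. The list's median was -0.23. Of 13 starch synthesis genes limma called none, 0 had an unadjusted p under 0.05, and their median was 0.02.

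Nitrate and sulfate assimilation genes were higher at ZT110 as a list. All 9 tested members had a positive change, as had 59.9% of all genes tested, and the list's median was 0.78. In the list 2 rose, or 5 with the replicate block, against 0.0674% and 0.529% of all genes. NIA1, a nitrate reductase gene, had 72.7 and 68.7 FPKM at ZT110 against 36.0 and 27.8 FPKM at ZT106, and NIR1, the nitrite reductase gene that acts next, had 87.5 and 88.3 FPKM against 54.4 and 46.6 FPKM. The ZT110 libraries of both lay above those of ZT106, and the changes were 1.13 ± 0.12 and 0.79 ± 0.11 (limma adjusted p = 0.0165 and 0.0339). The second nitrate reductase gene NIA2 and the sulfate reduction genes APR2 and APR3 changed by 0.89, 0.69 and 0.94 and were called only with the block (limma adjusted p = 0.0271, 0.0116 and 0.0447). GS2, which assimilates ammonium in the plastid, changed by 0.11, and its libraries overlapped, with 216.4 and 213.9 FPKM at ZT110 against 182.1 and 218.8 FPKM at ZT106. SULTR3;5, a sulfate transporter gene outside the list, rose by 1.04 ± 0.15 (limma adjusted p = 0.0478).

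Flavonoid genes were higher at ZT110 in 17 of 18 tested members, against 59.9% of all genes tested, and their median of 0.82 was the highest among lists of more than 1 tested gene. F3H (AT3G51240, chr3:19025192-19026872), flavanone 3-hydroxylase, had 29.5 and 30.3 FPKM at ZT110 against 7.76 and 10.5 FPKM at ZT106, a change of 1.62 ± 0.21 (limma adjusted p = 0.027). It overlaps AT3G51238, a noncoding RNA gene on the other strand with nearly the same values and a call of its own, and without stated strand use their reads cannot be told apart. Chalcone synthase (TT4), the first enzyme of the branch, had 97.7 and 113.1 FPKM at ZT110 against 27.6 and 39.6 FPKM at ZT106, and its change of 1.64 ± 0.28 was called with the replicate block (limma adjusted p = 0.026) and not without it (0.0725). The chalcone isomerase gene TT5, the flavonol synthase gene FLS1 and the glucosyltransferase gene UGT78D2 were likewise called only with the block, with changes of 0.98, 0.94 and 1.09 (limma adjusted p = 0.0385, 0.0218 and 0.0225). The late anthocyanin genes DFR and LDOX and the hydroxylase gene TT7 had changes of 1.41, 1.47 and 1.68 with wider errors of 0.41, 0.39 and 0.42, and no call. DFR, for instance, had 62.7 and 68.8 FPKM at ZT110 against 18.3 and 31.7 FPKM at ZT106. The repressor gene MYBL2 was the one member that was lower, by -0.26 ± 0.25.

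The remaining called genes belong to none of the lists. CCL, annotated as CCR-like, had 87.0 and 86.8 FPKM at ZT110 against 186.9 and 219.6 FPKM at ZT106, a change of -1.21 ± 0.15. ACD32.1, annotated for an alpha-crystallin domain, changed by -1.06 ± 0.13, and UGT74D1, a glucosyltransferase gene, by 0.68 ± 0.10, with limma adjusted p of 0.025, 0.0225 and 0.0425 for the 3. ERD9, a glutathione S-transferase gene with under 5 FPKM in all 4 libraries, rose by 1.17 ± 0.18 (limma adjusted p = 0.0489). AT5G62360 had 4.31 and 3.06 FPKM at ZT110 against 12.9 and 9.40 FPKM at ZT106, a change of -1.37 ± 0.18. AT3G19030 had 38.9 and 39.1 FPKM against 16.7 and 20.9 FPKM, a change of 1.02 ± 0.14 (limma adjusted p = 0.025 and 0.0384 for the 2). Neither carries a gene symbol in the annotation, and these last 3 genes and AT3G51238 lie outside the naming rule and are given to complete the 26. FKF1, ERD9, SPA3, UGT74D1 and ACD32.1 each overlap another annotated gene, so part of their reads may be shared. The same holds for LNK1, COL2, TT4, APR2, APR3 and PORB among the genes called only with the block.

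**Figure D5:**
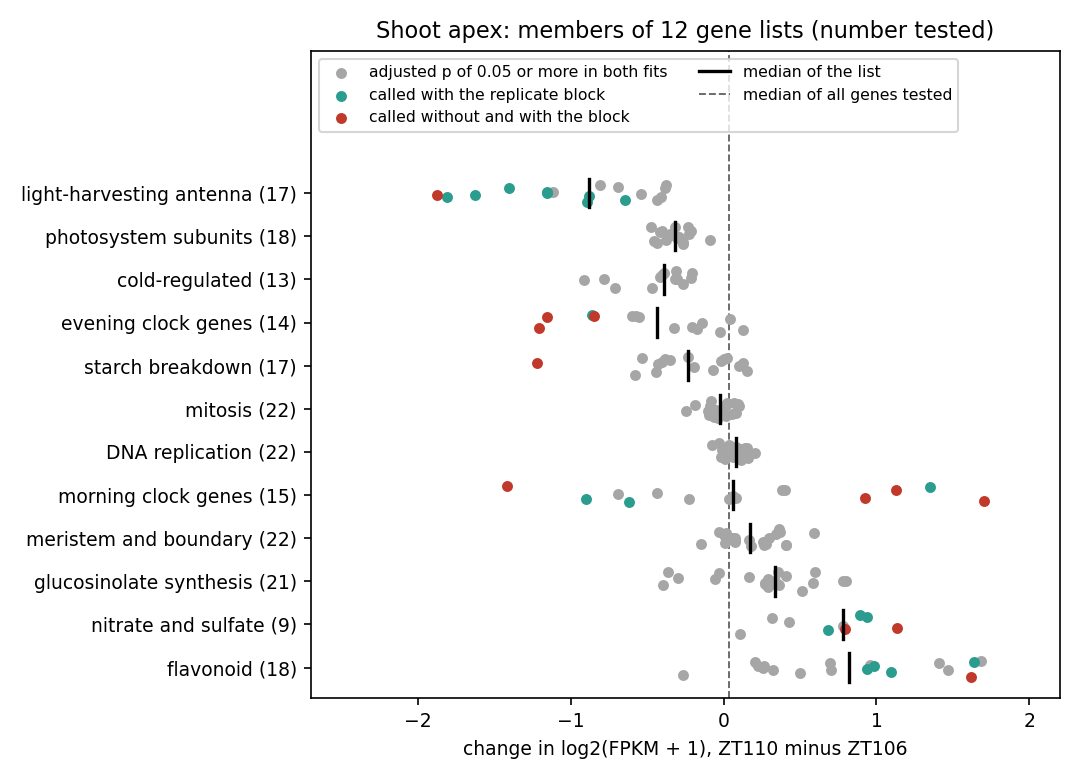
Change in the shoot apex for the tested members of 12 gene lists (x axis: log2(FPKM + 1), ZT110 minus ZT106), 1 point per gene, red where called without and with the replicate block, green where called with the block only. The black bar is the list's median and the dashed line the median of all genes. All antenna, photosystem and cold-regulated genes lie left of 0, all nitrate and sulfate genes and 17 of 18 flavonoid genes right of it.

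In leaves of the same times 1.67% of 19986 genes were called in ZT110 minus ZT106, in a fit over all 24 libraries. All 26 genes of the shoot apex had the same sign in leaves, where 7 of the 13 rising and 11 of the 13 falling genes were called. Over all genes tested 59.9% of those higher and 61.7% of those lower in the apex at ZT110 had the same sign in leaves. The difference between the apex change and the leaf change was tested directly as an interaction. By limma no gene was called (0.0%), 790 genes had an unadjusted p under 0.05, and with a replicate block in each tissue 9 were called (0.045%).

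Of the 12 genes named by rule for that difference, all except GLT1 and TZP were called in leaves, some rising and some falling. LHCB4.3, a minor antenna gene, was among those that rose there. It had 11.6 and 8.38 FPKM in the apex at ZT110 against 8.07 and 7.39 FPKM at ZT106, and 56.7 and 50.4 FPKM in leaves at ZT110 against 16.2 and 14.1 FPKM at ZT106. The apex change minus the leaf change was -1.44 ± 0.30 (limma adjusted p = 0.27, or 0.0178 with the replicate block). RWA3, a gene of cell wall acetylation, changed by -0.27 in the apex and -1.35 in leaves, a difference of 1.08 ± 0.19 (limma adjusted p = 0.146, or 0.0178 with the block). It overlaps the antenna gene LHCB1.5, whose change in the apex was -1.16, so its reads may be shared. The kinase gene SR1 changed by 0.30 in the apex and -0.62 in leaves, a difference of 0.92 ± 0.16 (limma adjusted p = 0.146, or 0.0406 with the block). MYBL2, which lies outside the rule and was chosen after its values were seen, fell by 2.23 in leaves and changed by -0.26 in the apex (difference 1.97 ± 0.38, limma adjusted p = 0.185, or 0.0313 with the block). Of the 26 called genes, BBX24 and TZP were among the 12 named for this difference. BBX24 changed by -0.63 in the apex and -1.32 in leaves and TZP by 0.98 and 0.33, with adjusted p for the difference of 0.232 and 0.4 by limma and 0.0682 and 0.0717 with the block. The rest of the 12 were BAM3, ASN2, RHM1, UGP2, MYC4, GLT1 and OBP4, with limma adjusted p from 0.27 to 0.468.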

How the data were processed

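Sequencing of polyA RNA from shoot apex and true leaves gave single reads of 50 bp. The deposited values are FPKM per gene, and STAR 2.5.0c, HOMER and TAIR10 are named in the submitters' processing notes; the use of strand in counting is not given in the sources used here. Total counts were not used, and depth was estimated from the step between FPKM values.

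From the 33323 genes, those with at least 1 FPKM in at least 2 apex libraries were kept (19275). limma 3.58.1 (R 4.3.3) was fitted with an intensity trend to log2(FPKM + 1) of 12 apex libraries in 6 time groups, with Benjamini-Hochberg adjustment over all genes tested. The difference between tissues came from a fit of all 24 libraries, in which 1 gene with a text cell was left out. Names came from RefSeq annotation, which matched 32835 genes, and promoters from the RefSeq genome TAIR10.1. One promoter sequence is not reported here. In a test on simulated data of 19076 genes, 20% of changes of 0.5 log2 and 73% of changes of 1 log2 were recovered.

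Replicate numbers paired the libraries: deviations of same-numbered apex libraries from their time means correlated in all 15 pairs of times (r 0.172 to 0.45).

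Genes named are the 12 largest called rises and 12 largest called falls with a mean of at least 5 FPKM in the higher group, one sign in both replicates and a gene symbol (10 and 12 qualified), all clock list genes, called members of other lists and 12 genes for the tissue difference. The members and the 40 gene lists were chosen with earlier results of these data known. Alternatives were another pseudocount, 2 other filters, rescaled libraries, the replicate block, robust estimation, other libraries for the spread and leaving out each compared library. Tables and plots were made in Python 3.11.15 with matplotlib 3.10.9 and pandas 2.3.3.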

Additional observations from a re-analysis of the deposited data

How the results depend on the processing

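The count of 26 calls (13 rising, 13 falling, 8 and 11 of them at least 2-fold) was 33 with a pseudocount of 0.1 (13 rising at least 2-fold) and 26 with robust estimation. It was 38 with the stricter filter and 14 with no filter (7 rising, 7 falling, 3 and 4 at least 2-fold). Rescaled libraries gave 53 (22 rising, 31 falling, 12 and 20 at least 2-fold), the replicate block 165 (102 and 63, 22 and 26 at least 2-fold) and the spread of all 24 libraries 71 (41 and 30, 13 and 20 at least 2-fold). Of the 26 genes themselves, 8 were called with no filter, 24 with robust estimation, 25 with rescaled libraries and 20 with the spread of all 24 libraries. The spread of the 4 compared libraries alone gave 0 calls (0 rising, 0 falling) by limma, with 1129 genes at an unadjusted p under 0.05. Without 1 compared library the count ranged from 1 to 8, with 0 to 4 rising (0 to 3 at least 2-fold) and 1 to 4 falling (1 to 4 at least 2-fold). The called genes kept their sign wherever they were tested. The tissue difference gave 0 calls, 7 with no filter, 9 with the replicate block and 0 to 1 without 1 library.

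Reversals touched uncalled values near 0. ELF3 was at -0.0081 with rescaled libraries. Without 1 compared library the ranges were -0.0199 to 0.0994 for ELF3, -0.0492 to 0.175 for CDF1, -0.0112 to 0.171 for CDF2, -0.103 to 0.175 for LNK3, -0.320 to 0.0376 for TCP21 and -0.100 to 0.0525 for ZTL. The median of the morning clock list ranged from -0.0112 to 0.171. That of the cold-regulated list kept its sign but ranged from -0.67 to -0.119. The cause of these shifts was not tested. With 2 libraries a time, changes of 0.5 log2 were mostly missed in simulated data.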

Other observations

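Cold-regulated genes were lower at ZT110 in all 13 tested members, where 59.9% of all genes tested were higher. In 9 members the change was negative in both replicate numbers, as it was in 4319 of all 19275 genes tested. Their median change was -0.39, but it depended on the ZT106 libraries, at -0.12 without replicate 2 and -0.67 without replicate 1 of that time. Limma called none with or without the replicate block. Of the 13, 3 had an unadjusted limma p under 0.05, as had 2.6% of all genes in the downward direction. COR15B, a chloroplast protein gene of cold acclimation, had 3.19 and 5.15 FPKM at ZT110 against 5.25 and 13.7 FPKM at ZT106, a change of -0.92 ± 0.37. The groups did not overlap by a narrow margin, with 5.15 FPKM at ZT110 just under 5.25 FPKM at ZT106.

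Meristem and boundary genes were higher in 19 of 22 tested members, where 59.9% of all genes tested were higher, with a median change of 0.17 against 0.04 over all genes. By limma none was called, and 7 had an unadjusted p under 0.05, as had 4.56% of all genes in the upward direction. CUC3, a NAC factor of organ boundaries, had 9.40 and 10.4 FPKM at ZT110 against 5.77 and 6.75 FPKM at ZT106. STM had 27.6 and 33.3 FPKM at ZT110 against 21.9 and 24.7 FPKM at ZT106, and KNAT1 had 30.3 and 30.4 FPKM against 24.001 and 22.888 FPKM. Their changes were 0.59, 0.37 and 0.36 (limma adjusted p = 0.36, 0.607 and 0.59).

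Mitosis and DNA replication genes, 22 tested in each list, had medians of -0.02 and 0.08, no limma call and 0 genes with an unadjusted p under 0.05. Against the same 59.9% and 4.56% of all genes, glucosinolate synthesis genes were higher in 16 of 21 (median 0.34), salicylate defence genes in 10 of 10 (median 0.32) and cytokinin genes in 10 of 11 (median 0.25), again with no limma call and with 3, 2 and 2 genes at an unadjusted p under 0.05. The defence regulator gene WRKY33, outside these lists, had 3.74 and 9.85 FPKM at ZT110 against 2.58 and 1.48 FPKM at ZT106. Its ZT110 libraries lay far from each other. Its change was 1.27 ± 0.39 (limma adjusted p = 0.433).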
